A study of Mus musculus with 9 samples.

Results

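The 6 mouse actin genes were followed through GAS, MB, MT and MB treated with lactate in 9 RNA sequencing libraries. Acta1, Actc1, Acta2, Actg2, Actb and Actg1 were chosen by symbol, and all 6 were found among the 38293 genes counted for GAS and the 46078 genes counted for the cultured cells. GAS (n = 3) was gastrocnemius muscle of mice labelled C57BL/6, which the methods describe as C57Bl6/J females aged 8 to 12 weeks. It was taken without treatment other than anesthesia with ketamine and xylazine before sacrifice. The GAS libraries were prepared from RNA selected for poly(A) tails. MB (n = 2) were primary myoblasts of C57BL/6 origin kept in growth medium with serum and basic FGF, and MT (n = 2) were the myotubes they formed over 3 days in differentiation medium. Lactate-treated MB (n = 2) received 10 mM sodium-L-lactate in PBS, and the control cells received PBS alone. Cultured cells were sequenced with the Smart-seq2 protocol, which amplifies full-length cDNA. Tissue and protocol changed together, so that differences between GAS and cultured cells cannot be told apart from differences between protocols, and they were set side by side without a test. Replicates are labelled biological, and no source used here says whether they were separate animals or cultures, so that p-values measure only the spread between these samples.

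Actin monomers assemble into the filaments of the cytoskeleton in every cell and into the thin filaments on which myosin pulls in muscle. Mammals have an actin gene for each main setting. Acta1 encodes skeletal muscle alpha-actin and Actc1 cardiac alpha-actin, the striated pair. Acta2 and Actg2 encode the smooth muscle actins, of vessels and of gut respectively, and Actb and Actg1 the cytoplasmic beta- and gamma-actin that nonmuscle cells use. Developing skeletal muscle is known to express Actc1 and Acta2 for a time before Acta1 dominates, and transcription of several actin genes depends on SRF, a factor that binds the CArG box and is coactivated by myocardin-related proteins that sense free actin monomers.

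Depth ranged from 19307793 to 19941574 counts per library in GAS and from 5198247 to 10839516 counts in culture, so that 3 counts correspond to at most 0.155 CPM in GAS and 0.577 CPM in culture. The 5 markers of skeletal muscle fibers summed to between 123365 and 139424 CPM in GAS, to between 2350 and 6726 CPM in MT and to at most 54.6 CPM in MB with or without lactate. The 4 myoblast markers summed to at least 930.1 CPM in MB and to at most 750.2 CPM in MT, mostly from Myod1. Of these 4, Pax7 alone was called lower in MT with edgeR's quasi-likelihood test, and Cdh15 was higher in MT replicate 2 than in either MB library. The sum of the fibroblast markers was far higher in MT than in MB, mostly from Col1a1, and is given with the smooth muscle actins. MT replicate 1 stood apart, with 28599 genes detected against 17965 in MT replicate 2. CT010467.1, a ribosomal RNA gene, took up 9.20% of MB replicate 1 and 13.8% of lactate-treated MB replicate 1, but no more than 0.575% of the other cultured libraries.

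All 6 genes lie on the minus strand of mm10. Acta1 is at chr8:123891769-123894751, Actc1 at chr2:114047282-114053548, Acta2 at chr19:34241090-34255590, Actg2 at chr6:83512905-83536265, Actb at chr5:142903115-142906754 and Actg1 at chr11:120345690-120348542. The coding sequences of the longest protein-coding transcripts hold 377 codons in Acta1, Actc1 and Acta2, 376 in Actg2 and 375 in Actb and Actg1. Aligned from the stop codon without gaps, any 2 of them shared between 81.7% and 88.7% of their bases, with the highest identity between Actb and Actg1 and 86.2% between Acta1 and Actc1. The first codons are shown because reads can be told apart between isoforms only over bases that differ in this way. Each line runs from the start codon to the base that corresponds to base 60 of Acta1, and capitals mark bases that differ from Acta1 at the same distance from the stop codon.
Acta1: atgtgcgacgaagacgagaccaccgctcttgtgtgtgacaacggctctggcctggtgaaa
Actc1: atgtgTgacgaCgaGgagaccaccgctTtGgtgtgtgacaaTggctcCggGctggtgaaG
Acta2: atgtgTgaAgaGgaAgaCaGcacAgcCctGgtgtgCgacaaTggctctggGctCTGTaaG
Actg2: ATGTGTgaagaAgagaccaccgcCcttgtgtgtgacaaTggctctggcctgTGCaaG
Actb: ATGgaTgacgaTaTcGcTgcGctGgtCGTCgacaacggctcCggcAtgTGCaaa
Actg1: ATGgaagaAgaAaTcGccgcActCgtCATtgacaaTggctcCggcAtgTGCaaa
Of these stretches, Actc1 differed from Acta1 at 9 bases, Actg2 at 13, Acta2 at 17, Actg1 at 18 and Actb at 19. The start codons of Actg2, Actb and Actg1 stand in capitals because these genes begin later and meet other codons of Acta1 there.

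Whether a read can be assigned to 1 gene was checked by asking which stretches of 100 bases in each transcript also occur in transcripts of other annotated genes. For Acta1, Actc1, Acta2 and Actg2 none did. In Actb, 98.9% of 1821 stretches were found in no other gene. Actg1 differed, with 49.0% of 1853 stretches free of a copy and 823 stretches shared with Gm12715, a processed pseudogene at chr4:103563402-103564529 on the plus strand that also contains the miRNA gene Gm22801. Gm12715 has the length of the coding sequence of Actg1 and differs from it at 4 of 1128 bases. The stretch from coding base 832 to 891, which holds 3 of these differences in capitals, is shown for both.
Actg1: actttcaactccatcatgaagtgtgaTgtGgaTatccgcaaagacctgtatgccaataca
Gm12715: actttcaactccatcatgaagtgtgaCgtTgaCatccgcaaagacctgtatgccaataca
Counts were assigned to Gm12715 in every library. In GAS it held 817, 643 and 390 counts, or 22.9%, 24.7% and 19.5% of the count of Actg1. In the 6 cultured libraries the corresponding share lay between 1.49% and 1.78%, far below every GAS share. This share is a ratio to Actg1, which was at most 68.1 RPKM in GAS and at least 99.4 RPKM in culture. It therefore does not show that Gm12715 itself was at a higher level in GAS. Gm8399, a further processed pseudogene with 327 shared stretches, held between 0.589% and 1.13% of the Actg1 count over all 9 libraries. The handling of reads with several alignments is not given in the sources used here, and the levels of Actg1 are therefore less certain than those of the other 5 genes. The annotated miRNA genes Gm23419 and Mir6935 also lie in exons of Actg1 on the same strand.

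In MB the cytoplasmic genes made up nearly all actin transcripts, in GAS the striated genes did, and MT stood between them. Shares were computed per library from counts divided by the exonic length of each gene, so that they do not depend on scaling between libraries. Actb and Actg1 together took 96.3% ± 0.07 (SD, n = 2) of the actin total in MB, 97.0% ± 0.32 (SD, n = 2) in lactate-treated MB, 22.9% ± 4.71 (SD, n = 2) in MT and 0.759% ± 0.138 (SD, n = 3) in GAS. Acta1 and Actc1 together took 1.02% ± 0.11 (SD, n = 2) in MB, 0.929% ± 0.178 (SD, n = 2) in lactate-treated MB, 63.5% ± 12.4 (SD, n = 2) in MT and 99.2% ± 0.15 (SD, n = 3) in GAS. The smooth muscle genes reached their highest share in MT, with 8.11% in replicate 1 and 18.9% in replicate 2. Elsewhere Acta2 and Actg2 together held 2.64% ± 0.18 (SD, n = 2) in MB, 2.12% ± 0.15 (SD, n = 2) in lactate-treated MB and 0.0638% ± 0.0096 (SD, n = 3) in GAS. An exact permutation test of 2 against 2 libraries cannot give a two-sided p below 0.33, and these shares were therefore compared by their ranges alone, which did not overlap between MB, MT and GAS for any of the 3 pairs.

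**Figure D1:**
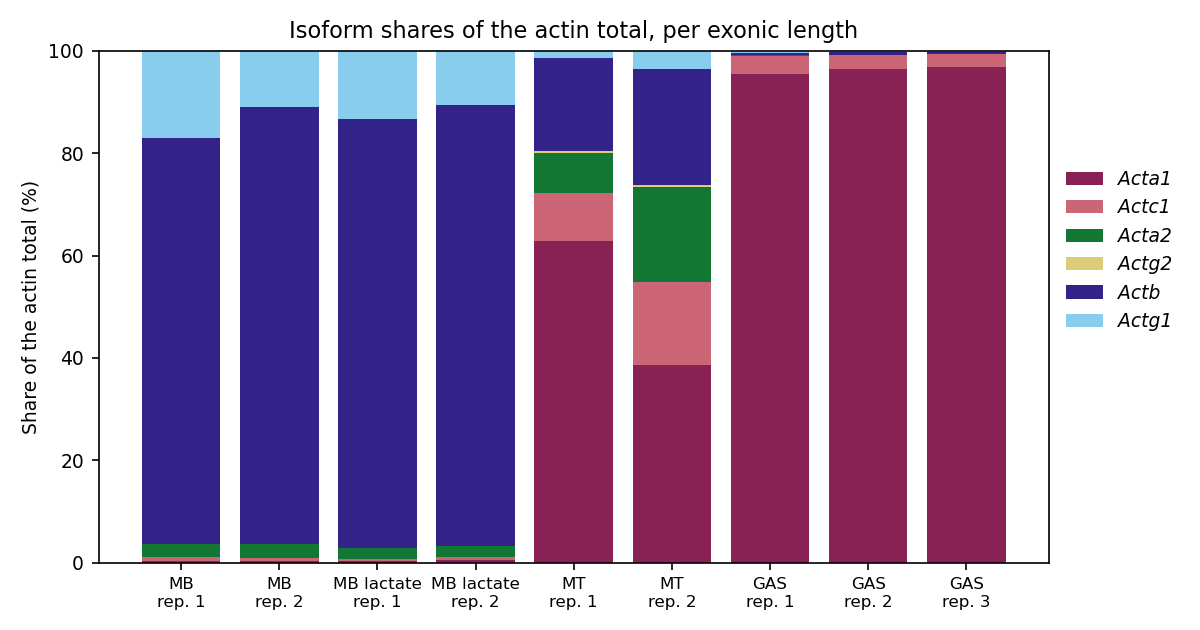
Share of each of the 6 actin genes in the actin total of a library, in percent, from counts per exonic length, with 1 bar for each of the 9 libraries. Actb fills at least 79.4% of each MB bar with or without lactate, Acta1 at least 95.4% of each GAS bar, and the MT bars hold Acta1, Actc1, Acta2 and Actb side by side.

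The composition differed while the summed actin level of MT stayed close to that of MB. The 6 genes took 1.66% ± 0.48 (SD, n = 2) of all counts in MB, 1.85% ± 0.31 (SD, n = 2) in lactate-treated MB, 1.62% ± 0.06 (SD, n = 2) in MT and 2.52% ± 0.13 (SD, n = 3) in GAS. Levels between genes are given in RPKM, the CPM after TMM normalization per kilobase of exon, with GAS and cultured cells normalized separately. Summed over the 6 genes, the RPKM were 8287 and 4675 in MB, 6994 and 8395 in MT, and 17451, 15372 and 16121 in GAS. MT replicate 1 lay between the MB libraries and MT replicate 2 just above them, whereas all GAS libraries were higher. In bulk RNA, fewer cells expressing a gene and less RNA per cell cannot be told apart.

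**Figure D2:**
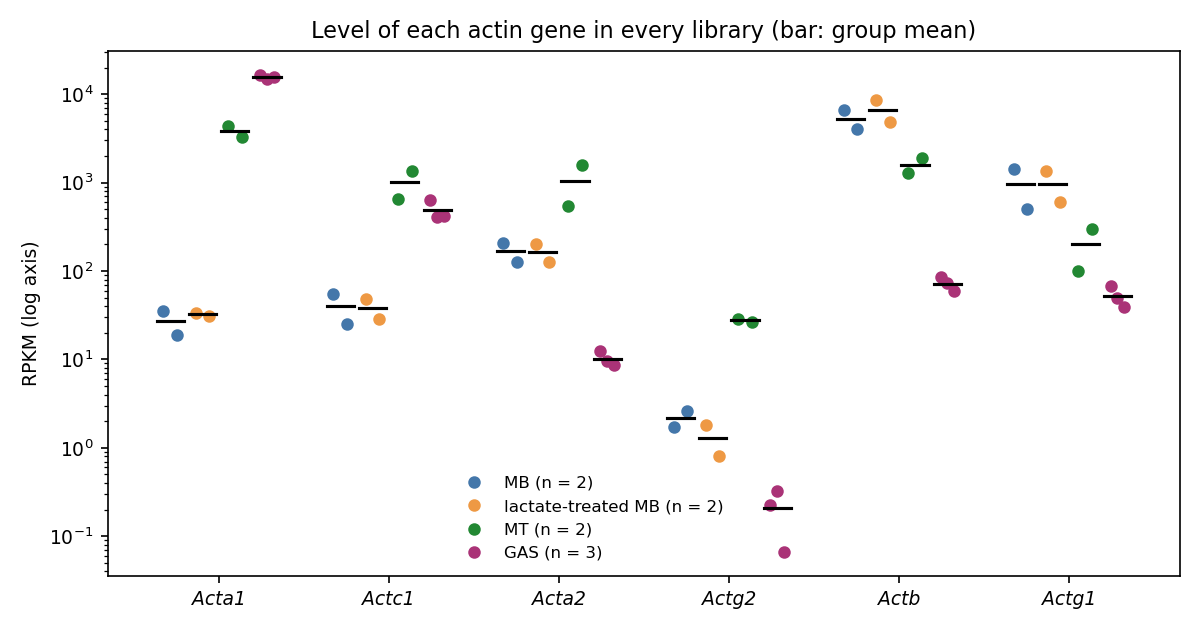
RPKM of each actin gene in every library on a log axis, with 1 point per library and a bar at the group mean for MB (n = 2), lactate-treated MB (n = 2), MT (n = 2) and GAS (n = 3). Acta1 climbs from at most 35.7 RPKM in MB to at least 14833 RPKM in GAS, Actb moves the opposite way, and Acta2 and Actg2 are highest in MT.

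Acta1 showed the widest range of the 6 genes among the cultured cells. Its level was 35.7 and 19.1 RPKM in MB, 33.5 and 31.1 RPKM in lactate-treated MB, 4396 and 3236 RPKM in MT, and 16647, 14833 and 15594 RPKM in GAS. MB and lactate-treated MB overlapped, and both lay far below MT. Ranked by RPKM among all genes of a library, Acta1 was number 2 in each GAS library, number 2 and number 8 in the MT libraries and between 1682 and 2790 in the 4 MB libraries. Of the actin total it took 62.9% in the first and 38.5% in the other MT library, whereas its GAS share lay between 95.4% and 96.7%. The lowest MT level was 90.7 times the highest MB level, and edgeR's quasi-likelihood test gave a log2FC of 7.11 (SE 0.90) with an adjusted p of 0.000659.

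Actc1, the cardiac gene that immature skeletal muscle also uses, was higher in MT than in GAS. Its level was 55.4 and 25.2 RPKM in MB, 47.9 and 28.8 RPKM in lactate-treated MB, 660.0 and 1364 RPKM in MT, and 639, 407 and 421 RPKM in GAS. All 3 GAS values were below both MT values, although the highest GAS and the lowest MT library were close, and GAS and MT were not compared by a test. Against MB, Actc1 rose in MT with a log2FC of 4.59 (SE 0.71) and an adjusted p of 0.00204 in edgeR's quasi-likelihood test. The 5 cardiomyocyte markers had no count in any MB library and summed to at most 1.87 CPM in GAS. In MT they summed to 19.3 CPM in replicate 1, mainly from Mybpc3 at 9.75 CPM and Myh6 at 7.74 CPM, and to 0.763 CPM in replicate 2. The part of cardiomyocyte-like cells in the level of Actc1 was not tested.

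The balance within the striated pair shifted stepwise from Actc1 to Acta1. Acta1 formed 39.2% and 43.1% of the pair in MB, 41.2% and 52.0% in lactate-treated MB, 86.9% and 70.3% in MT, and 96.3%, 97.3% and 97.4% in GAS. Only MB and lactate-treated MB overlapped. Within the cytoplasmic pair the balance was steadier in culture, where Actb formed between 82.4% and 92.7% of the pair in all 6 libraries, and MB, lactate-treated MB and MT overlapped. In GAS, Actb formed 55.4% to 60.01% of the pair, and reads assigned to Gm12715 are not included in that share. Which of the pair was larger in GAS depended on the divisor, since per stretch found in no other annotated transcript Actb formed 38.65% to 43.2% in GAS and 70.4% to 86.65% in culture. In the smooth muscle pair Acta2 formed at least 94.9% in every library, and the groups overlapped except that both MT libraries, at 94.9% and 98.3%, lay below both lactate-treated MB libraries, at 99.1% and 99.4%.

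**Figure D3:**
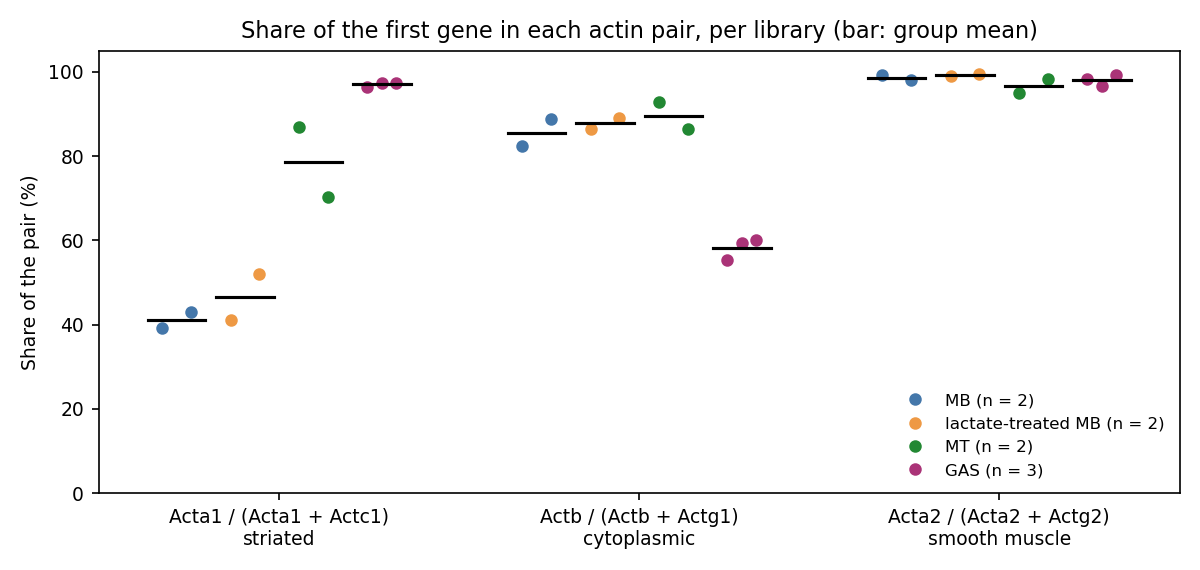
Share of the first gene in each pair of related actin genes, in percent, with 1 point per library and a bar at the group mean for MB (n = 2), lactate-treated MB (n = 2), MT (n = 2) and GAS (n = 3). The Acta1 share of the striated pair runs from 39.2% in MB to 97.4% in GAS, the Actb share of the cytoplasmic pair, per exonic length, drops to between 55.4% and 60.01% in GAS, and the Acta2 share stays at or above 94.9%.

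Acta2 and Actc1 were at a similar level in MT, with Acta2 above Actc1 in replicate 2 and below it in replicate 1. Its level was 207 and 127 RPKM in MB, 202 and 125 RPKM in lactate-treated MB, 538.5 and 1563 RPKM in MT, and 12.5, 9.68 and 8.58 RPKM in GAS. The MT libraries were both above MB but differed from each other by 2.90-fold, and GAS was lowest. A log2FC of 2.60 in MT against MB (SE 0.69) passed edgeR's quasi-likelihood test with an adjusted p of 0.0262. That call depended on single libraries, since the adjusted p of the same test was 0.0627 without MB replicate 2 and 0.116 without MT replicate 2, with a log2FC of 1.57 in the latter case. Over all 10 alternatives tried, the adjusted p of edgeR or DESeq2 ran from 8.08e-05 to 0.116.

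Actg2 was the rarest actin throughout. It stood at 1.73 and 2.63 RPKM in MB, 1.805 and 0.799 RPKM in lactate-treated MB, 28.8 and 26.4 RPKM in MT, and 0.228, 0.325 and 0.0667 RPKM in GAS. The GAS values rest on 7, 10 and 2 counts, and the last corresponds to 1.03e-05% of the library, with an exact Clopper-Pearson 95% interval from 1.24e-06% to 3.71e-05% that covers counting error only. Between MB and MT the log2FC of Actg2 was 3.67 (SE 0.55), with an adjusted p of 0.00172 in edgeR's quasi-likelihood test. Its MT libraries differed by 1.09-fold, less than those of any other actin gene.

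Summed markers of smooth muscle and of fibroblasts were higher in MT than in MB. Both sums were also above MB in GAS, which had its own protocol and was normalized separately. The 4 endothelial markers summed to at most 0.245 CPM in MB, at most 11.3 CPM in MT and between 133 and 147 CPM in GAS. Of the 8 markers of smooth muscle and mural cells, 4 also belong to the list of SRF targets. In MT against MB 5 were tested and 3 were called higher, namely Pdgfrb, Lmod1 and Notch3. Lmod1 rests on 0 and 4 counts in MB and Notch3 on 27 and 1. Smtn and Rgs5 were not called. Rgs5 was at 2.70 and 4.22 CPM in MB and at 10.35 and 0.127 CPM in MT replicates 1 and 2. All 8 markers summed to 71.5 to 94.98 CPM in MB, 76.8 to 104.5 CPM in lactate-treated MB, 313 to 429.5 CPM in MT and 307 to 342 CPM in GAS. Cnn1 and Kcnmb1 had no count in MB, against 3.20 and 0.890 CPM of Cnn1 and 1.415 and 0.3815 CPM of Kcnmb1 in MT. Myh11, the smooth muscle myosin, stood at 0.123 and 0 CPM in MB, at 2.98 and 0.382 CPM in MT and between 17.4 and 20.2 CPM in GAS. The sums of MT and GAS lay close but came from different genes, mainly Smtn and Pdgfrb in MT and Rgs5 in GAS. Acta2 was at 1051 ± 724 RPKM (SD, n = 2) in MT and at 10.2 ± 2.0 RPKM (SD, n = 3) in GAS. Of 5 fibroblast markers, 4 were tested and 3 were called higher in MT, namely Col1a1, Dcn and Col1a2. Pdgfra was not called, with a log2FC of 1.46 (SE 0.86), and Lum was not tested. Col1a2 was at 1.59 and 1.69 CPM in MB and at 31.9 and 2.16 CPM in MT replicates 1 and 2. Of all genes tested in MT against MB, 11.0% were called higher, the share to set beside both marker lists. Fibroblast markers summed to between 3.86 and 4.17 CPM in MB and to 13568 and 1878 CPM in MT replicates 1 and 2. Of these MT sums, Col1a1 gave 13116 and 1762 CPM. Without MT replicate 1, Col1a2 was no longer called, with a log2FC of 0.33. The part of such cells in the level of Acta2 and Actg2 was not tested.

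Actb, often used as a reference gene for expression, was at a lower level in both MT libraries than in both MB libraries and lower still in GAS. Its level was 6581.5 and 3992 RPKM in MB, 8507.5 and 4900.5 RPKM in lactate-treated MB, 1271 and 1904 RPKM in MT, and 84.6, 72.7 and 58.65 RPKM in GAS. The ranges of MB and lactate-treated MB overlapped, whereas MT and GAS lay below them without overlap. By RPKM, Actb was among the 5 highest genes of each MB library and ranked between 410 and 575 in GAS. The log2FC of MT against MB was -1.77 (95% interval -3.67 to 0.13, adjusted p = 0.181, edgeR's quasi-likelihood test), which did not pass. With the Wald test of DESeq2 the adjusted p was 0.00332, the lowest among 10 alternatives that reached up to 0.621.

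Actg1 followed the same order with a wider spread. Its level was 1406 and 509 RPKM in MB, 1341 and 597 RPKM in lactate-treated MB, 99.4 and 301 RPKM in MT, and 68.1, 49.6 and 39.1 RPKM in GAS. Replicate 1 exceeded replicate 2 by 2.76-fold in MB and by 2.25-fold in lactate-treated MB, and both of these first replicates also held the high ribosomal RNA share. Its part in the difference was not tested. Between MT and MB the log2FC of Actg1 was -2.34 (95% interval -4.03 to -0.64, adjusted p = 0.0592, edgeR's quasi-likelihood test), just outside the threshold. Its adjusted p fell to 0.000988 without MB replicate 2, to 0.0152 without MT replicate 2 and to 0.00221 with the Wald test of DESeq2, and it was 0.165 without MB replicate 1 and 0.385 without MT replicate 1, the last being the highest of 10 alternatives.

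The comparison of MT with MB asks how transcription differs once myoblasts have differentiated, and in it 4 of the 6 actin genes were called higher and none lower. Calls required an adjusted p under 0.05 and an absolute log2FC over 0.5, and 11.0% of the 12921 genes tested were called higher and 6.86% lower. All 6 genes passed the filter on low counts. No actin gene overlapped between MT and MB in CPM, with 4 above and 2 below, where 32.9% of all genes tested lay wholly above and 29.2% wholly below. Without MT replicate 1, the library that stood apart, the log2FC were 6.79 for Acta1, 4.98 for Actc1, 3.54 for Actg2 and 3.14 for Acta2, and all 4 were still called. Without MB replicate 1, which held much ribosomal RNA, they were in the same order 7.61, 5.28, 3.35 and 3.00 and were called as well. Leaving out MB replicate 2 or MT replicate 2 left 3 called higher and 1, Actg1, called lower.

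**Figure D4:**
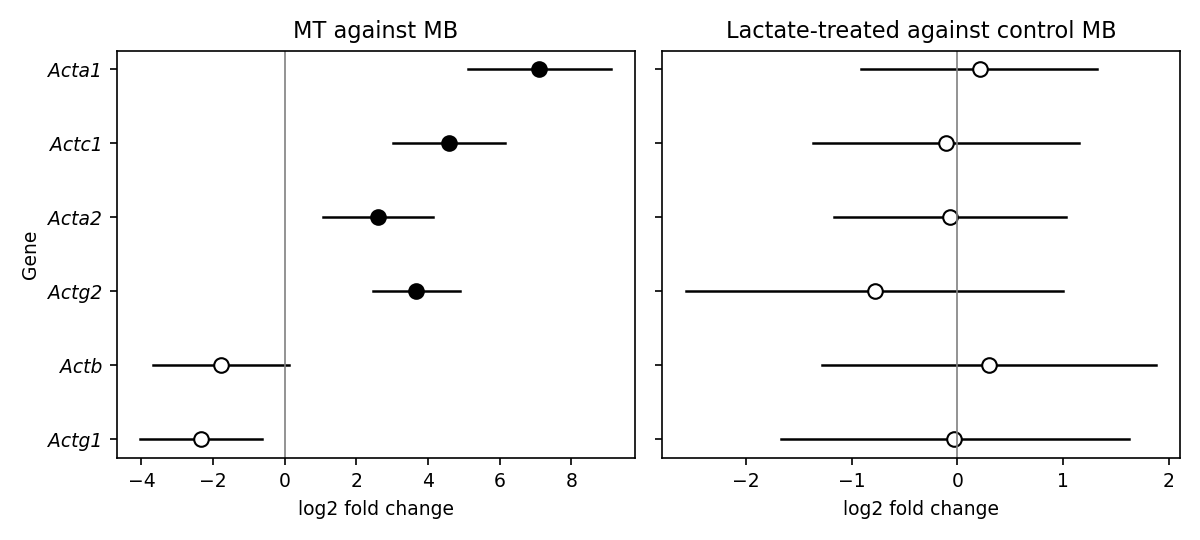
Log2 fold change of each actin gene in MT against MB (left) and in lactate-treated against control MB (right), each with 2 libraries per group, as a point with its 95% interval from edgeR's quasi-likelihood fit, filled where called and open where not. The 4 muscle actins lie right of 0 on the left, from 2.60 to 7.11, and all 6 intervals on the right include 0.

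Lactate treatment asks whether added lactate by itself changes expression in MB, and no change of an actin gene was detectable at this depth and replication. The comparison used the same MB libraries as that with MT. Of the 6 genes 0 were called, and so were 0% of the 11804 genes tested with edgeR, of which 5 had an unadjusted p under 0.05. That is far fewer than a share of 0.05 of all genes. With the replicate number added as a block, 166 genes had an unadjusted p under 0.05 in the same test, and 0 were called. The Wald test of DESeq2 likewise called 0 genes and gave 3 with an unadjusted p under 0.05. Acta1 had a log2FC of 0.21 (95% interval -0.91 to 1.32) and Actc1 of -0.11 (95% interval -1.37 to 1.15). Acta2 stood at -0.07 (95% interval -1.17 to 1.03) and Actg2 at -0.78 (95% interval -2.57 to 1.00), the latter from 16 and 7 counts with lactate and 22 and 34 without. For Actb it was 0.30 (95% interval -1.28 to 1.88) and for Actg1 -0.03 (95% interval -1.67 to 1.62). The adjusted p was 1.00 for each of the 6 genes with edgeR's quasi-likelihood test. In this fit, which does not pair libraries, the interval of every gene reached up to a log2FC of at least 1.00 and down to -0.91 or lower. Between libraries of the same replicate number, the log2 ratio of lactate-treated to control CPM was 0.37 and 0.30 for Actb and -0.03 and -0.02 for Acta2. The 2 ratios differed in sign for Acta1 (-0.09 and 0.71), Actc1 (-0.21 and 0.19), Actg1 (-0.07 and 0.23) and Actg2 (0.06 and -1.72). Leaving out 1 library turned the direction for 5 of the 6 genes.

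Promoters were examined for the CArG box because SRF is the factor most closely tied to actin transcription. RefSeq promoters of GRCm38.p6, 250 bases before to 50 bases after the start, were matched by symbol for Acta1, Actc1, Acta2 and Actg1. The CArG box was searched on either strand only in its strict form, CC, then 6 bases of A or T, then GG. This form was found in the promoters of Acta1, Actc1 and Actg1 and in 1.63% of 32851 promoters in all. The 250 bases before the start are shown for these 3, with the CArG box in capitals, because 2 belong to genes that rose in MT and the other to a gene that was at a lower level there. They lie at chr8:123894776-123895025 for Acta1, chr2:114052876-114053125 for Actc1 and chr11:120348496-120348745 for Actg1, all on the minus strand.
Acta1: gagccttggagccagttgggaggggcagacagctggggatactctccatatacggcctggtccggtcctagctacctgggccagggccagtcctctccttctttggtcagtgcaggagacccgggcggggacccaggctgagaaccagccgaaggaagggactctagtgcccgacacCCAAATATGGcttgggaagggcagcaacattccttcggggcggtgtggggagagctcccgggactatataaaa
Actc1: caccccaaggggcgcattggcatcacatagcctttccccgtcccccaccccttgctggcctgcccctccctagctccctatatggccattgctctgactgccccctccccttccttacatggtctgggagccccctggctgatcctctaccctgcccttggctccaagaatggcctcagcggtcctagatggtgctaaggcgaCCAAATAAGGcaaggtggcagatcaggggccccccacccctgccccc
Actg1: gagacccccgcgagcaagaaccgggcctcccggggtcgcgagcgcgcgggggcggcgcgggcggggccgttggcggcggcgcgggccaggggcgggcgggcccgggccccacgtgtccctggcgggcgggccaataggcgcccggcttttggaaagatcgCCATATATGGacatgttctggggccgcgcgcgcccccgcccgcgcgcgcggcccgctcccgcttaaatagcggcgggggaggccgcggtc
The box began at position -73 in Acta1, -47 in Actc1 and -90 in Actg1, counted from the RefSeq start. The strict form was not in the window of Acta2. That window holds ccctatatgg and ccttgtttgg, each of which departs from the strict form at 1 base. Such looser forms were not counted for any gene. Other short motifs were searched on both strands, except the TATA box, which was searched only on the strand of the gene. The E-box, CANNTG, bound by myogenic factors, occurred 2 times for Acta1, 3 times for Acta2 and 1 time each for Actc1 and Actg1, and in 72.3% of all promoters. The MCAT motif, CATTCC, was found for Acta1 and Acta2 and in 14.7% of all promoters. The letters TATAAA of the TATA box were found for Acta1 and Actc1 and in 8.32% of all. They began at position -7 in Acta1 and at position 34 in Actc1, the latter after the start and outside the bases shown. The RefSeq starts, from which all positions are counted, were not checked. The GC box, GGGCGG, occurred 6 times for Actg1 and 2 times for Acta1, and in 35.7% of all promoters. No CArG box overlapped a match of another motif. Matches are a description of the letters and not of binding.

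Of 72 genes that fold, modify, bind or nucleate actin or belong to SRF and its targets, 69 were tested in MT against MB, of which 6, or 8.70%, were called higher and as many lower, against 11.0% and 6.86% of all genes tested. Without MT replicate 1 no gene of these lists was called lower. Srf itself was at 16.2 and 8.92 CPM in MB, 2.16 and 5.21 CPM in MT, and 86.7, 88.7 and 72.0 CPM in GAS. MT was lowest without overlap, yet the log2FC of -1.83 against MB (SE 0.70, adjusted p = 0.0985, edgeR's quasi-likelihood test) did not pass. It did pass without MB replicate 2 and without MT replicate 2, with log2FC of -2.31 and -2.65. The coactivator genes Mrtfa and Mrtfb had log2FC of -0.67 (SE 0.45) and -0.21 (SE 0.46) and did not pass either, and Myocd, with at most 25 counts in any library, was not tested. Abra, whose product activates SRF in striated muscle, was the exception in its list. It held 1 count in each MB library, with or without lactate, against 12.1 and 42.5 CPM in MT and between 142 and 202 CPM in GAS, and it was called higher in MT (adjusted p = 0.000688, edgeR's quasi-likelihood test).

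Among 10 SRF target genes of the contractile and adhesion apparatus other than actins, 8 were tested in MT against MB. Their median log2FC was 1.18 against 0.072 over all genes. Of these 8, 3 were called higher in MT, where 11.0% of all genes tested were called higher. These were Mylk, the smooth muscle myosin light chain kinase, with a log2FC of 5.03 (SE 0.67), Tagln, which encodes transgelin, with 4.44 (SE 0.54), and Lmod1, a leiomodin, with 4.25 (SE 1.17). Lmod1 rests on 0 and 4 counts in MB, and it was no longer called without either MB library or without the filter on low counts. Tagln was at 18.1 and 14.9 CPM in MB, 249 and 484 CPM in MT and between 17.0 and 19.6 CPM in GAS. Like Acta2, it was thus highest in MT among the groups measured. Acta2 was also higher in MB than in GAS, whereas Tagln was at similar levels in both. The other 5 tested targets, among them Vcl and Myl9, had log2FC between -1.10 and 1.22 and were not called with edgeR's quasi-likelihood test. Smtn, which encodes smoothelin and had the highest of these log2FC, was called with DESeq2. The number of targets called higher was 1 with at least 10 counts in every library and 5 without MT replicate 2.

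Actin is folded by the chaperonin CCT with the help of prefoldin, and 3 of the 14 genes of both complexes were called lower in MT with edgeR's quasi-likelihood test and none higher, where 6.86% of all genes were called lower. The number called lower was 6 with DESeq2 and 1 with at least 10 counts in every library, without a filter or with the replicate block. Cct2 fell by 2.28 on the log2 scale (SE 0.56), Cct6a fell by 1.83 (SE 0.55) and Cct3 fell by 1.79 (SE 0.53), all subunits of CCT. All 3 calls were lost without MT replicate 1, where their log2FC were -1.85, -1.38 and -1.40. The median log2FC of the list was -1.14. CCT also folds tubulin, so the list is not particular to actin. Of 18 genes of monomer binding and turnover, 2 were called higher and 2 lower, with a median of -0.05, against 11.0% and 6.86% of all genes. Those higher were Cap2, the cyclase-associated protein of muscle, with a log2FC of 3.79 (SE 0.49), and Gsn, the severing protein gelsolin, with 2.31 (SE 0.63). Coro1c, a coronin, fell by 1.85 (SE 0.48) and Wdr1, a cofactor of cofilin, fell by 1.76 (SE 0.51). Without MT replicate 1 only Cap2 of these 4 was called. Gsn was also not called without MB replicate 2, with a log2FC of 1.66, nor were Coro1c and Wdr1 without MT replicate 2, with -2.01 and -2.18. With the replicate block the calls of Cct3, Cct6a and Wdr1 were lost, at adjusted p of 0.0732, 0.0633 and 0.0921 in edgeR's quasi-likelihood test.

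In the lists of nucleation and modification, edgeR's quasi-likelihood test called 1 gene, which was lower, where 6.86% of all genes were called lower. Of 18 genes of the Arp2/3 complex, the formins and their activators it called Wasf1, which fell by 2.24 on the log2 scale (SE 0.65), and the median was -0.33. Wasf1 was not called once any 1 of the 4 libraries was left out, with log2FC from -2.46 to -2.19. With DESeq2, 3 genes of nucleation were called lower, the others being Arpc4 and Diaph3. None of the 6 genes of actin modification was called with edgeR's quasi-likelihood test, among them Naa80, which acetylates the actin N terminus, and Setd3, which methylates actin on a histidine, and their log2FC lay between -0.53 and 1.43. Mical1, an oxidase of actin, had the highest, and it was called higher with DESeq2, without the filter on low counts and without MB replicate 1. With lactate, 0 of the 65 genes of these 6 lists that were tested were called, and the list medians lay between -0.08 and 0.12.

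**Figure D5:**
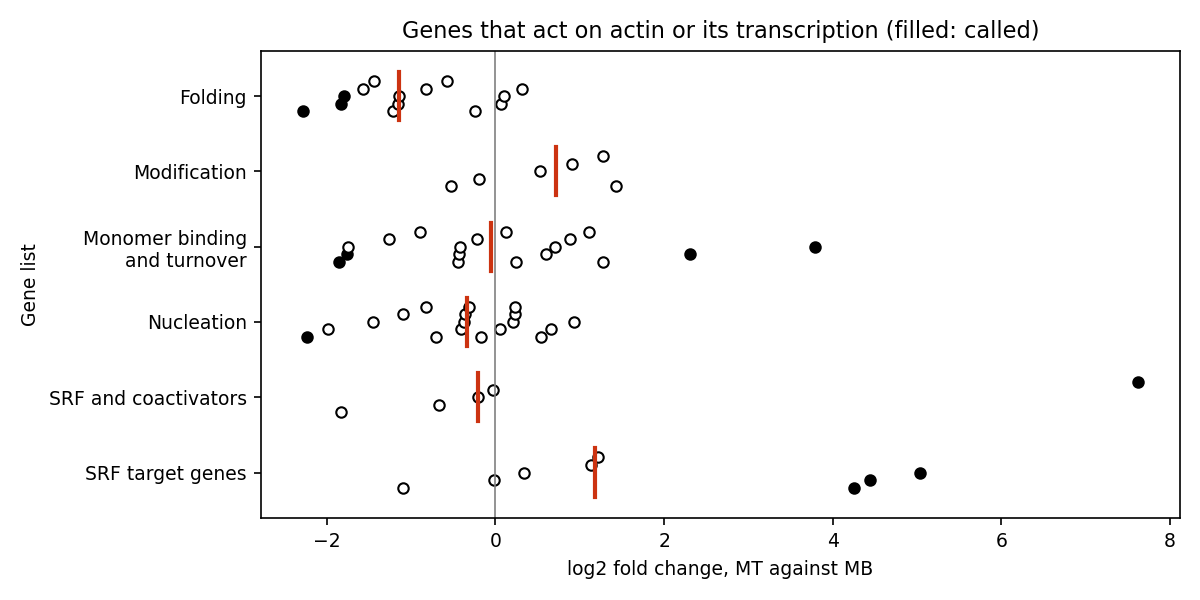
Log2 fold change of MT against MB for each tested gene of 6 lists that act on actin or its transcription, filled where called by edgeR's quasi-likelihood test with 2 libraries per group and open where not, with a bar at the median of each list. The folding list lies mostly left of 0 with a median of -1.14, and the called SRF targets and Abra lie to the right, Abra with 1 count in each MB library.

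Profiles were compared across all 9 libraries by Pearson's r on log2(CPM + 1), over 4392 genes with a mean of at least 5 on that scale. These r describe a contrast of 4 groups in which GAS also had its own protocol, and carry no test. Most like Acta1 were Myom2, Fhl1 and Pdlim3, with r of at least 0.997, and 148 genes had an r over 0.95. Actc1 was followed most closely by Dusp3, H2-K1 and Mybph (r at least 0.989), Acta2 by Bgn, Cd82 and Aif1l (r at least 0.985) and Actg2 by Rnf181, Pkig and Acsl3 (r at least 0.973). Nearest to Actb were Trip6, Tubb5 and Phgdh, with r of at least 0.998, and to Actg1 Rpl41, Unc119b and Uba1, with r of at least 0.989. Over 0.95 there were 542 genes for Actb and 20 for Actg2. Among the actin genes themselves, r was 0.95 for Acta1 and Actc1, 0.91 for Actb and Actg1 and 0.88 for Acta2 and Actg2, and -0.94 for Acta1 and Actb.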

How the data were processed

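RNA of GAS (3 libraries) and of MB, MT and lactate-treated MB (2 each) was sequenced. The files hold whole-number counts per gene, not normalized, which the authors made by trimming with Trim Galore 0.6.6, aligning to mm10 with HISAT2 2.2.1 and counting with featureCounts of Subread 2.0.1. The annotation release, strand setting and handling of reads with several alignments are not given in the sources used here. Gene models and transcripts were taken from GENCODE M21, on the same assembly, in which 36345 of the genes of the GAS files and 45143 of those of the culture files were found.

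Differences of MT from MB, and of lactate-treated MB from control MB, were tested in R 4.3.3 with edgeR 4.0.16 on the 4 libraries concerned, with its filter on low counts, TMM normalization, the quasi-likelihood test and Benjamini-Hochberg adjustment over all genes tested. Thresholds were an adjusted p under 0.05 and an absolute log2FC over 0.5. SE were derived from the F statistic. CPM were normalized by TMM for GAS and for cultured cells separately and divided by the union exon length for RPKM. Isoform shares are counts per exonic length, as percent of the actin sum of a library. Named genes are the members, up to 3 called genes per list and direction, Srf, Mrtfa, Mrtfb and Myocd, and the 3 genes most correlated with each member. Myl9, Vcl, Smtn, Mical1, Arpc4, Diaph3, Naa80, Setd3, Dcn and other markers were named after their values were seen. Members and lists were chosen with earlier results of these data known. The fits were also run on simulated counts with less spread than these data, and no conclusion is drawn from that.

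Alternatives were RLE factors, DESeq2 1.42.0, other filters, the replicate number as a block, all 6 cultured libraries in one fit, leaving out each library, and other divisors for the shares. Same-numbered libraries were checked for pairing through the correlation of deviations from group means. Other values were computed in Python 3.11.15.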

Additional observations from a re-analysis of the deposited data

How the results depend on the processing

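Of the 6 log2FC of MT against MB, those of Acta1, Actc1 and Actg2 kept their direction and stayed called under all 10 alternatives, from 6.59 to 7.61, 3.90 to 5.28 and 3.35 to 3.83. With DESeq2, Actb (-1.77) and Actg1 (-2.32) were called too, so that 2 actin genes were called lower. When 1 library was left out, in fits that take the lone library to vary like the other group, Acta2 ranged from 1.57 to 3.14, Actg1 from -3.41 to -1.40 and the actin genes called lower from 0 to 1. Over all genes, 1425 were called higher and 887 lower in MT, against 766 higher and 678 lower with at least 10 counts in every library, where fewer genes were tested. Leaving out 1 library gave from 962 to 4118 higher, the latter without MT replicate 2, and from 270 lower without MT replicate 1 to 1570 without MB replicate 2. The cause was not tested.

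For lactate, where 0 genes passed a nominal p under 0.01 with an absolute log2FC over 0.5, DESeq2 and no filter gave 1 gene each, and leaving out 1 library gave from 1 to 177, the latter without MB replicate 2. Called genes then numbered from 0 to 2, the latter without MB replicate 1. Actg1 turned to 0.04 with DESeq2 and with RLE factors. Without 1 library Acta1 ranged from -0.17 to 0.81, Actc1 from -0.56 to 0.66, Acta2 from -0.40 to 0.42, Actb from -0.09 to 0.80 and Actg1 from -0.67 to 0.98. The cause was not tested.

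The pairing of libraries by replicate number rests on 2 pairs per comparison and on no statement of a shared source. Deviations of same-numbered libraries correlated with r = -0.132 for MT and MB and 0.705 for lactate-treated and control MB, across genes. With the replicate block, 1447 genes were called higher and 824 lower in MT and the same number of actin genes, 4 higher and 0 lower, while Cct3, Cct6a and Wdr1 were no longer called. Under the block 13 genes passed the nominal threshold for lactate, Actg1 turned to 0.05, and Actb stood at 0.30 (95% interval -0.05 to 0.65). For lactate, the interval of every actin gene was narrower with the block than without it and still included 0. It ran from -0.57 to 0.46 for Acta2 and from -2.07 to 0.49 for Actg2. A block with crossed numbers, added after seeing the data, called 1192 genes higher and 867 lower in MT, 2 actin genes among the latter.

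The share of Acta1 and Actc1 in the actin total moved beyond the replicate SD in MB, lactate-treated MB and GAS, to 0.611%, 0.552% and 98.6% from raw counts, to 0.803%, 0.727% and 98.95% per transcript length, and to 0.708%, 0.655% and 98.55% per stretch found in no other annotated transcript, in that order. The last divisor was chosen after seeing the data, in place of stretches unique in the genome, which were not run because no genome sequence was used here. It moved the mean Actg1 share from 13.9% to 24.2% in MB, from 11.9% to 21.1% in lactate-treated MB, from 2.50% to 5.77% in MT and from 0.319% to 0.813% in GAS. The share of Actb and Actg1 together in GAS, 0.606% to 0.875% per exonic length, was 1.09% to 1.62% with it and 1.05% to 1.51% from raw counts. Actg2 under lactate was not tested with at least 10 counts in every library.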
